A study of Mus musculus with 6 samples.

Results

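Mitochondria-rich barcodes of 1 leukaemic bone marrow library were compared with the other barcodes of the same library. A barcode marks 1 droplet, and each unique molecular identifier (UMI) counted on it stands for 1 captured transcript. The library, HM PBS, came from marrow of a Hoxa9-Meis1 (HM) leukaemia model given PBS. It held 12474 of the 58337 barcodes of the series. A barcode was called mitochondria-rich where over 10% of its UMIs came from the 13 protein-coding genes of mitochondrial DNA, and kept where 10% or less did. Members were thus chosen by their measured mitochondrial share, and both sides also needed at least 500 detected genes. That left 4515 mitochondria-rich barcodes (36.2% of the library) and 2755 kept barcodes (22.1%). A further 4801 barcodes over the limit and 403 under it had fewer than 500 genes and were not compared. The mitochondrial share itself defined the sides, so it and every gene ratio in this library are given as descriptions, with no test.

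The series profiled bone marrow of mice with acute myeloid leukaemia by droplet 3′ single-cell RNA sequencing. Its title names SHP-1, the tyrosine phosphatase that Ptpn6 encodes, and the glycolytic enzyme PFKP. Both HM libraries are labelled Shp-1 f/f (floxed, with no deletion labelled), and 1 received PBS and 1 Arac+Dox (cytarabine with a drug given only as Dox). The 4 other libraries came from MLL-AF9 (MA9) leukaemias labelled Shp-1 f/f with PBS, Shp-1 Δ/Δ (deleted) with PBS, Shp-1 f/f with Arac+Dox and Shp-1 Δ/Δ with Arac+Dox. Per the labels the oncogenes were introduced into mouse embryonic stem cells, red cells of the flushed marrow were lysed, and viability was read by flow cytometry. No age, sex, Cre driver or number of pooled mice is given in the sources used here, and each group is 1 library.

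In the HM PBS library, 4515 mitochondria-rich barcodes stood against 102, 275, 94, 406 and 243 in the others (MA9 f/f and Δ/Δ with PBS, MA9 f/f and Δ/Δ with Arac+Dox, then HM with Arac+Dox). As shares of each library these were 36.2% against 1.12%, 2.65%, 0.914%, 3.78% and 4.53%. HM PBS was also shallower, with a median of 1412 UMIs over all its barcodes against 6082.5 to 8541.5 in the others. The level of Ptpn6 in kept barcodes, as CPM (counts scaled to 1e+06 non-mitochondrial UMIs), was 191 and 178 in the libraries labelled MA9 Shp-1 f/f and Δ/Δ with PBS. It was 59.3 and 45.3 in those labelled f/f and Δ/Δ with Arac+Dox, so this level did not separate the labels of deletion. Counts per gene do not show which exons were present, so the deletion itself was not tested. All comparisons here are between barcodes within a library, where the deletion label is shared. Of the 12474 barcodes in HM PBS, 37 also occurred in HM Arac+Dox, and none had its first 16 bases in an MA9 library.

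Mitochondria carry their own small genome, which encodes core subunits of respiratory complexes I, III, IV and V, while all other mitochondrial proteins are encoded in the nucleus and imported. Messenger RNA of nuclear genes lies in the cytoplasm or nucleus, and mitochondrial messenger RNA lies inside the organelle behind its own membranes. A high mitochondrial share is a usual sign of a damaged cell in droplet data and also occurs in intact cells rich in mitochondria, so barcodes over a limit are commonly removed. Marrow neutrophils pass from blasts through stages named by their granules, and Hoxa9 with its cofactor Meis1 holds myeloid progenitors in an immature, self-renewing state.

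The mitochondrial share in HM PBS fell into 2 modes on either side of the limit. Among the 7270 barcodes with at least 500 genes, 2066 had a share of 2.5% or less, and 1420 lay between 17.5% and 20%. The bins between 5% and 12.5% held 171 to 205 barcodes each. The median share was 19.5% in mitochondria-rich barcodes (quartiles 17.6% and 22.9%) and 1.14% in kept barcodes (quartiles 0.840% and 2.5%). Just inside and outside the limit, 79 barcodes lay between 10% and 11% and 75 between 9% and 10%. Barcodes with under 500 genes peaked at the same place, with 711 between 15% and 17.5% and 1176 between 17.5% and 20%. They added a broad further group between 50% and 80%, with up to 171 barcodes per bin.

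**Figure D1:**
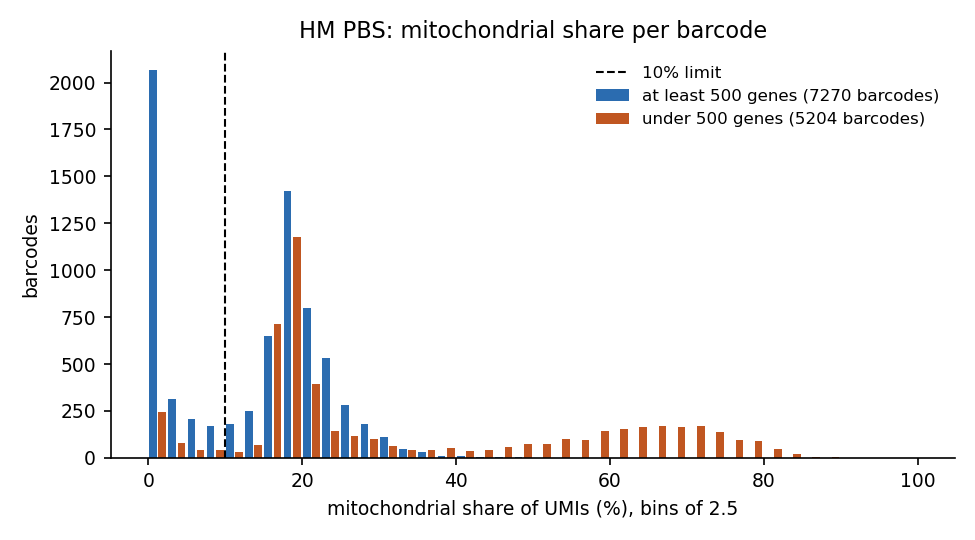
Number of HM PBS barcodes (y axis) by mitochondrial share of UMIs in bins of 2.5% (x axis), for barcodes with at least 500 detected genes and for those with fewer; the dashed line is the 10% limit. The bin of 0 to 2.5% holds 2066 of the deeper barcodes and that of 17.5% to 20% holds 1420.

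Mitochondria-rich barcodes held both more mitochondrial and fewer other UMIs. Their median was 379 mitochondrial UMIs against 48 in kept barcodes, and 1478 other UMIs against 3953. They showed 706 genes per barcode against 1111. Thinned to 500 non-mitochondrial UMIs each, they showed 291 genes (quartiles 263 and 308) against 231 (quartiles 211 and 261), so the order of gene numbers turned at equal depth. Across the 7270 barcodes the mitochondrial share had a Spearman rho of 0.788 with mitochondrial UMIs and of -0.598 with other UMIs. These measures share their UMIs, and the values are descriptions.

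All 13 mitochondrial genes contributed. mt-Co1, the catalytic subunit of cytochrome c oxidase (complex IV), had 124 UMIs per mitochondria-rich barcode and 39.5 per kept barcode. mt-Co2 of the same complex had 87.8 and 24.6, and mt-Nd1 of complex I had 34.2 and 8.18. Within the mitochondrial UMIs, mt-Co1 made up 28.2% in mitochondria-rich and 32.3% in kept barcodes. mt-Nd1 made up 7.76% and 6.69%, mt-Nd4 7.48% and 6.64%, and mt-Nd2 2.01% and 1.53%. mt-Cytb of complex III made up 6.92% and 6.29%, mt-Atp6 of ATP synthase 9.76% and 9.14%, and mt-Co2 19.9% and 20.1%. Thus mt-Co1 took less of the mitochondrial pool in mitochondria-rich barcodes and these complex I transcripts took more. mt-Nd6, the gene on the other strand, stayed low, with 0.0594% and 0.0668%.

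For nuclear genes, UMIs were summed over each side and scaled to CPM of non-mitochondrial UMIs, from sums of 7774874 UMIs in mitochondria-rich and 14774641 in kept barcodes. Of 6128 genes at 20 CPM or more on either side, 2051 (33.5%) were at least 2-fold higher in mitochondria-rich barcodes and 798 (13%) at least 2-fold lower. The median log2 ratio over these genes was 0.43. An abundant pair of genes weighs on this scale: S100a8 and S100a9 made up 22.3% of kept and 3.13% of mitochondria-rich UMIs, and leaving both out of the totals moves every other log2 ratio by -0.32. Scaling by the median of ratios over genes moved all log2 ratios by -0.61 and gave 1043 genes higher and 1772 lower, so the higher share of these calls went from 72.0% to 37.1%. Because the sides are unequal in depth, ratios were repeated in barcodes of 1000 to 2000 other UMIs (2733 against 379 barcodes) and of 2000 to 4000 (1093 against 1006). The second range was chosen after seeing the data.

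The genes of the leukaemia driver programme were among those highest relative to kept barcodes. Hoxa9, the driver homeobox gene, stood at 156 CPM (1212 UMIs) in mitochondria-rich and 12.5 CPM (185 UMIs) in kept barcodes, a log2 ratio of 3.64 (95% interval 3.41 to 3.87). Meis1, its cofactor and the other driver, stood at 26.5 and 2.23 CPM, a log2 ratio of 3.57 (3.03 to 4.15). The files do not separate reads of the introduced constructs from those of the mouse genes. Sox4, a transcription factor of progenitors, stood at 161 and 11.6 CPM (log2 ratio 3.79). Flt3, a receptor kinase of progenitors, stood at 27.7 and 3.11 CPM (3.15), and Myb, a transcription factor needed by blasts, at 299 and 59.4 CPM (2.33). Bcl2, which blocks mitochondrial cell death, stood at 118 and 17.7 CPM (2.74). Every one of these was over 5-fold higher on the mitochondria-rich side. Intervals on ratios are exact, at 95%, and cover counting error only.

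Of the 15 genes listed for the Hoxa9 and Meis1 programme, 11 reached 5 CPM, and 9 of these were higher and 1 lower, with a median log2 ratio of 2.33. Members of lists are counted as higher or lower where their log2 ratio passed 0.32 either way. Of the 14 stem and progenitor markers 8 reached 5 CPM, and 6 were higher and 1 lower (median 2.02). The lists share 6 genes, Meis1, Flt3, Sox4, Myb, Erg and Cd34. Over all 9429 genes at 5 CPM or more, 56.2% were higher and 26.5% lower by that measure, with a median of 0.53. Both list medians kept their sign in the ranges of 1000 to 2000 UMIs (2.42 and 2.05) and of 2000 to 4000 UMIs (3.32 and 3.14). Hoxa9 itself had log2 ratios of 4.90 and 4.93 in the ranges.

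Among genes at 50 CPM or more, the 15 largest named ratios took in Sox4, Hoxa9 and genes of mixed function. Nrg2, a neuregulin growth factor, stood at 88.4 CPM in mitochondria-rich and 6.36 in kept barcodes, a log2 ratio of 3.80 (3.48 to 4.12). Ppan, a nucleolar factor of ribosome assembly, stood at 285 and 23.1 CPM (3.62), and Pik3ip1, an inhibitor of phosphoinositide 3-kinase, at 83.2 and 7.72 CPM (3.43). Gria3, a glutamate receptor subunit, stood at 174 and 19.6 CPM (3.15), Ptprs, a receptor tyrosine phosphatase, at 59.8 and 6.90 CPM (3.11), and Alkbh1, a nucleic acid demethylase, at 180 and 20.7 CPM (3.12). Tchp, Sh2d5, Ccnb1ip1, Tespa1, Zfp692, Tspoap1 and Ankrd26 complete the 15 largest ratios named, which ran from 3.11 to 3.80. All were at least 8-fold higher, and all 15 stayed higher at both matched depths. Those ranges hold part of the same barcodes that gave the choice of genes, so they are not separate evidence.

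Neutrophil genes lay on the other side. S100a8 and S100a9, which form the abundant calcium-binding protein of neutrophil cytoplasm, stood at 15946 and 15350 CPM in mitochondria-rich against 118006 and 104758 CPM in kept barcodes. Their log2 ratios were -2.89 (-2.90 to -2.88) and -2.77 (-2.78 to -2.76). The cysteine protease inhibitors of the stefin family gave the smallest ratios: Stfa3 stood at 31.8 and 328 CPM (-3.37), Cstdc5 at 142 and 1354 CPM (-3.25), and Stfa2 at 85.8 and 654 CPM (-2.93). Stfa1, Cstdc4 and Stfa2l1 had log2 ratios of -2.81, -2.68 and -2.67. These genes are near-identical copies, so how reads were divided among them is uncertain. Wfdc21, Saa3, S100a6, S100a4, Cd52, Ost4 and Cox6c complete the 15 smallest ratios named, from -3.37 to -2.51.

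The neutrophil lists were lower in every member, while of all genes 26.5% were lower. All 12 mature neutrophil markers were lower (median log2 ratio -1.67), and their summed level was 38277 CPM in mitochondria-rich and 246415 CPM in kept barcodes. All 10 markers of the secondary granule stage were lower as well (median -1.70, summed level 11929 and 48766 CPM). Camp, the granule antimicrobial peptide, stood at 4806 and 21570 CPM (log2 ratio -2.17), Ngp, a granule protein, at 3374 and 13159 CPM (-1.96), and Lcn2, an iron-siderophore binder, at 1378 and 6601 CPM (-2.26). Mmp8, the neutrophil collagenase, stood at 346 and 1259 CPM (-1.86). At matched depth the mature list had medians of -2.14 and -3.22, and the secondary granule list -0.83 and -1.85, in the lower and the higher range. The primary granule list did not keep its side: its median was -0.59 at all depths but 2.24 and 1.44 in the ranges. In it Elane, neutrophil elastase, had a log2 ratio of -1.11 at all depths and of 2.89 and 1.38 at matched depth, while Mpo, myeloperoxidase, was higher throughout (0.81, 3.15 and 3.46). Saa3, an acute phase protein, also turned, from -2.55 to 1.15 and 0.40.

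**Figure D2:**
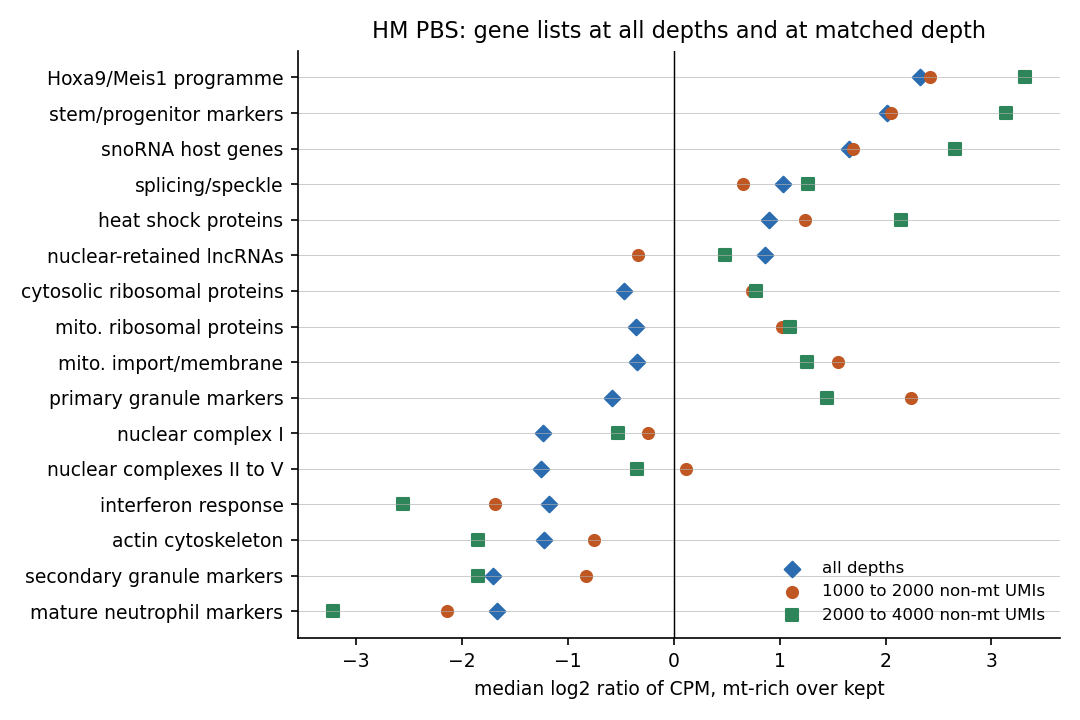
Median log2 ratio of CPM, mitochondria-rich over kept barcodes of HM PBS (x axis), for 16 gene lists (rows), over all barcodes and within 2 ranges of non-mitochondrial UMIs. The Hoxa9/Meis1 and stem/progenitor medians lie above 2 and both neutrophil medians below 0 in all 3, while ribosomal, import and primary granule medians change side.

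Lymphoid markers were sparse in mitochondria-rich barcodes. None of 4515 carried 2 or more of the T cell, NK cell or B cell markers once thinned to 500 UMIs, which allows a share of such thinned barcodes of up to 0.0817% (upper end of the exact 95% interval). Of 2755 kept barcodes 19, 10 and 1 did. Without thinning, 4 mitochondria-rich barcodes (0.0886%) carried T cell, 4 NK cell and none B cell markers, against 51, 30 and 7 kept barcodes. Stem and progenitor markers were met by 122 mitochondria-rich barcodes (2.70%) and 7 kept barcodes (0.254%) at this depth, and without thinning by 16.4% and 9.0%. Mature neutrophil markers were met by 80.2% and 95%, and without thinning by 99.1% and 99.9%. Such shares were also high in barcodes that should lack these genes: of the 69 kept barcodes with 2 or more lymphoid markers, 66 (95.7%) also carried 2 or more mature neutrophil markers, at a median of 2851 non-mitochondrial UMIs against 3967.5 in other kept barcodes. Their summed S100a8 and S100a9 level was 51683 CPM against 227500 CPM. Carrying 2 mature neutrophil markers was thus near universal on every side, and is not read as a cell identity. All these are shares of barcodes with UMIs of the markers, not of cells of a type. The primary granule share (41.2% and 10.9%) goes against the summed CPM of that list (3287 and 3785), so no order was read from it.

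Macrophage, megakaryocyte and stroma markers were at low levels too. Of 10 macrophage markers 3 reached 5 CPM, with a summed level of 43.6 CPM in mitochondria-rich and 87.4 in kept barcodes, and 3 were at 0 in mitochondria-rich barcodes. C1qa, C1qb and C1qc, the defining complement genes, were among the 7 under 5 CPM. No marker of megakaryocytes or of marrow stroma reached 5 CPM, with sums of 2.70 and 2.06 CPM in mitochondria-rich barcodes. The 4 haemoglobin genes measured, which mark red cell RNA, summed to 61.0 and 296 CPM (median log2 ratio -2.84). That median was 2.39 at 1000 to 2000 UMIs and -4.72 at 2000 to 4000. The part of free RNA or doublets in the ratios was not tested.

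Nuclear genes of the respiratory chain were mostly lower over all depths, while of all genes 26.5% were lower and 56.2% higher. The mitochondrial genes of the same complexes set the rule and are not compared with them. Of 36 nuclear complex I subunits 32 were lower and 2 higher (median log2 ratio -1.23), and of 40 genes of complexes II to V 35 were lower and 1 higher (median -1.25). Ndufa1 of complex I stood at 31.6 CPM in mitochondria-rich and 170 CPM in kept barcodes (-2.43), Uqcrb of complex III at 34.1 and 190 CPM (-2.48), and Cox6a1 of complex IV at 36.8 and 187 CPM (-2.35). Cox6c, another complex IV subunit, stood at 54.3 and 334 CPM (-2.62), and Ost4, the smallest subunit of the oligosaccharyltransferase of the endoplasmic reticulum, at 26.8 and 153 CPM (-2.51). These list medians differed in the depth ranges, which also hold other barcodes: they were -0.25 and 0.11 at 1000 to 2000 UMIs and -0.52 and -0.35 at 2000 to 4000. Ndufa1, Uqcrb, Cox6a1, Cox6c and Ost4 stayed lower in both ranges.

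The genes with the smallest ratios had short coding sequences. Coding sequences of all 15 smallest named ratios ran from 114 to 342 bases. Those of Ost4 and Cox6c are shown as the subunits of membrane complexes among them, with the start and stop codons in capitals, read 5′ to 3′ from the GENCODE vM21 transcripts of GRCm38. The coding sequence of Ost4 has 114 bases and lies within chr5:30907422-30907535 on the minus strand, and that of Cox6c has 231 bases within chr15:35935300-35937271 on the minus strand, introns included.
Ost4: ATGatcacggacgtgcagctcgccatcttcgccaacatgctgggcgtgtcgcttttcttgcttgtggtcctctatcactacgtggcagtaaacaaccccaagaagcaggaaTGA
Cox6c: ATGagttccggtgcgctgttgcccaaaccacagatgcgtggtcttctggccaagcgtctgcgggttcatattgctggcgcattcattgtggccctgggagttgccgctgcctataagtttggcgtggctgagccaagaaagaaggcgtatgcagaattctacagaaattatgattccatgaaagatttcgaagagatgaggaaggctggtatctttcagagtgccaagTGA

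Genes were then placed by transcript length, matched for 6126 of the 6128. The 15 largest named ratios had a median transcript of 3226 bases (1509 to 7616) and the 15 smallest one of 514 bases (412 to 2200). Over quintiles of length the median log2 ratio was -0.53, 0.28, 0.61, 0.75 and 1.0 from the shortest to the longest genes. In the shortest quintile 13% of genes were at least 2-fold higher and 29.6% lower, and in the longest 49.9% and 4.16%. Spearman's rho over genes was 0.360 with transcript length, 0.527 with coding length (6004 genes), 0.427 with the number of exons and 0.064 with GC content. At 1000 to 2000 UMIs the values were 0.039, 0.164 and 0.194 for transcript length, coding length and exons, and at 2000 to 4000 UMIs 0.159, 0.317 and 0.290. Genes are not independent replicates and share these 2 sums, so the values are descriptions. The quintile medians were 0.30, 0.37, 0.40, 0.36 and 0.41 at 1000 to 2000 UMIs and 0.20, 0.79, 0.94, 0.90 and 1.11 at 2000 to 4000. The relation with length was thus smaller in both ranges, nearly flat in the lower and still present in the higher.

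**Figure D3:**
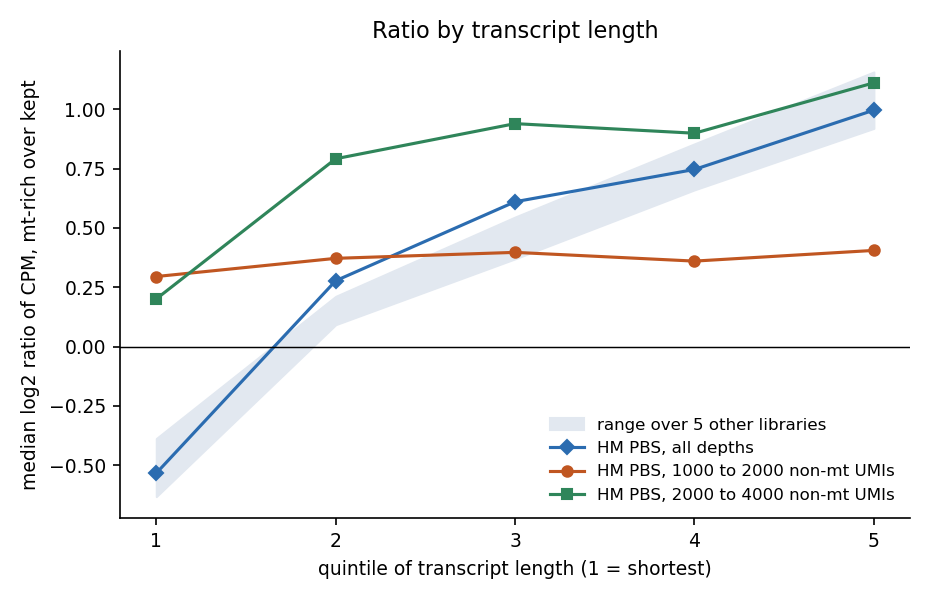
Median log2 ratio of CPM, mitochondria-rich over kept barcodes (y axis), by quintile of transcript length (x axis), for HM PBS at all depths and in 2 depth ranges; the band spans the 5 other libraries. The line for all depths climbs from -0.53 to 1.0, and that for 1000 to 2000 UMIs is nearly flat, while that for 2000 to 4000 UMIs climbs from 0.20 to 1.11.

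Splicing and nuclear speckle genes and hosts of small nucleolar RNAs were mostly higher in HM PBS. Over all genes the shares were 56.2% higher and 26.5% lower. Of 22 splicing and nuclear speckle genes 20 were higher and none lower (median log2 ratio 1.03, and 0.65 and 1.27 at matched depth). Srrm2 and Son, the scaffold proteins of nuclear speckles, stood at 1717 and 420 CPM (2.03) and at 1490 and 479 CPM (1.64). Prpf4b, a splicing kinase, stood at 412 and 76.9 CPM (2.42). Hosts of small nucleolar RNAs were higher in 8 of 9 measured (median 1.66, and 1.69 and 2.66 at matched depth), led by Snhg20 at 82.1 and 13.8 CPM (2.57). In HM Arac+Dox, however, 2 of 9 measured hosts were higher and 5 lower (median -0.38). Each MA9 library had only 3 of them measured. Malat1, an abundant RNA retained in the nucleus, stood at 31936 and 15877 CPM, a log2 ratio of 1.01. It had ratios of -0.24 and 0.44 in the matched depth ranges, so its side was not the same in all 3 comparisons. Neat1, the scaffold RNA of paraspeckles, had 0.72, -0.44 and 0.52, while Kcnq1ot1, another nuclear RNA, had 2.61, 2.99 and 3.63. Over the 122 long non-coding RNAs compared, the median was 1.24 against 0.41 for 6000 protein-coding genes, with 0.28 and 0.37 at 1000 to 2000 UMIs and 1.33 and 0.80 at 2000 to 4000.

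Translation and mitochondrial maintenance genes gave mixed results. Of 81 cytosolic ribosomal protein genes 52 were lower and 11 higher at all depths (median log2 ratio -0.47), but the median was 0.74 and 0.78 at matched depth. The 52 mitochondrial ribosomal proteins gave 28 lower and 13 higher (median -0.36), and 1.02 and 1.10 at matched depth. Mrps6 of the small subunit had the highest ratio of these (2.45), and Mrps21 of the same subunit the lowest (-2.28). Import and membrane genes had a median of -0.34, and 1.55 and 1.26 at matched depth, although Tomm7, a small subunit of the outer membrane translocase, stayed lower (-2.23, -2.06 and -1.74). Eef2, the translocating elongation factor, stood at 443 and 174 CPM (1.35), and Eif1, a small initiation factor, at 609 and 1136 CPM (-0.90). Enzymes of the tricarboxylic acid cycle had a median of 0.48, with 10 of 18 higher and 4 lower, close to the 56.2% and 26.5% of all genes, and a median of -0.13 under median-of-ratios scaling. Suclg2, a succinate-CoA ligase subunit, led them at 24.8 and 6.29 CPM (1.98).

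Of the stress lists, that of heat shock had the highest share of higher genes in HM PBS. Over all genes the shares were 56.2% higher and 26.5% lower (median 0.53). Of 15 heat shock genes measured 11 were higher and 1 lower (median log2 ratio 0.90, and 1.24 and 2.14 at matched depth). Hspa5, the chaperone of the endoplasmic reticulum, stood at 1912 and 732 CPM (1.38), and Hsp90aa1, a cytosolic chaperone, at 1060 and 476 CPM (1.16). Of 12 measured targets of mitochondrial stress and ATF4, 8 were higher and none lower (median 0.69), a higher share near that of all genes. Lonp1, a protease of the mitochondrial matrix, stood at 72.5 and 17.8 CPM (2.03), and Shmt2, an enzyme of mitochondrial one-carbon metabolism, at 47.2 and 15 CPM (1.65). Immediate early genes, which respond to handling and signals, were higher in 9 of 18 and lower in 3 (median 0.31), no more than among all genes. Jun stood at 3056 and 655 CPM (2.22), Fosb at 559 and 135 CPM (2.05), and Dusp2, a phosphatase of that group, at 184 and 21.9 CPM (3.07). The median of that list was -0.39 and 0.20 at matched depth, while these 3 genes stayed higher.

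Cell death genes did not share a direction, and of all genes 56.2% were higher and 26.5% lower. Of 18 caspases and effectors measured 9 were higher and 7 lower (median log2 ratio 0.34, and -0.27 under median-of-ratios scaling). Mlkl and Ripk3, which carry out necroptosis, stood at 70.2 and 18.2 CPM (1.95) and at 22.9 and 8.26 CPM (1.47). Fas, a death receptor, stood at 11.3 and 35.7 CPM (-1.66). Of 10 measured members of the BCL2 family 4 were higher and 3 lower. The pro-death members Pmaip1 and Bbc3 had ratios of 2.20 and 1.55 beside the 2.74 of the pro-survival gene Bcl2. All 6 of these genes kept their side at both matched depths.

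Actin, interferon and oxidase genes were mostly lower, while of all genes 26.5% were lower and 56.2% higher. Of 24 actin cytoskeleton genes 23 were lower and 1 higher (median log2 ratio -1.23, and -0.75 and -1.84 at matched depth). Actb stood at 3276 and 9797 CPM (-1.58), and Pfn1, an actin monomer binder, at 692 and 2388 CPM (-1.79). Of 18 measured interferon response genes 17 were lower and none higher (median -1.18, and -1.69 and -2.56 at matched depth). Isg15, a ubiquitin-like protein induced by interferon, stood at 217 and 931 CPM (-2.10), and Ifitm3, a membrane restriction factor, at 767 and 2908 CPM (-1.92). Among 21 antioxidant and oxidase genes 16 were lower and 2 higher (median -0.70, but -0.18 and -1.10 at matched depth). They included Cyba, a membrane subunit of the neutrophil NADPH oxidase, at 370 and 1814 CPM (-2.29), and Txn1, thioredoxin, at 383 and 1451 CPM (-1.92).

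The genes named in the title of the series lay on opposite sides. Ptpn6 stood at 82.7 CPM (643 UMIs) in mitochondria-rich and 138 CPM (2035 UMIs) in kept barcodes, a log2 ratio of -0.74 (-0.87 to -0.61). Pfkp stood at 91.4 CPM (711 UMIs) and 37.3 CPM (551 UMIs), a log2 ratio of 1.29 (1.13 to 1.46). Of all genes 26.5% were lower and 56.2% higher. Of 13 measured genes on the list of Shp-1, its receptors and Pfkp, 9 were lower and 3 higher (median -0.74). Cd33 and Ceacam1, both on that list, had ratios of -1.32 and -1.65, while Pecam1, another receptor on it, stood at 104 and 15.4 CPM (2.76). Glycolysis genes were lower in 11 of 21 and higher in 6 (median -0.58), with Eno1, enolase, at 52.5 and 219 CPM (-2.06) and Slc2a3, a glucose transporter, at 87.2 and 226 CPM (-1.37).

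Levels of S100a8, Hoxa9 and Srrm2, pooled within bins, changed in order along the mitochondrial share. Pooled levels cannot tell graded barcodes from a changing mix of barcodes, and a step at the limit was not tested. S100a8 stood at 121907 CPM in the 2379 barcodes at 5% or less, at 85150 in the 376 between 5% and 10%, at 22716 in the 2504 between 10% and 20% and at 7029 in the 1988 between 20% and 40%. Hoxa9 stood at 9.77, 35.7, 118 and 206 CPM in the same order, and Srrm2 at 379, 769, 1474 and 2037 CPM. The last 2 of these bins had like depth, with medians of 1417 and 1533.5 non-mitochondrial UMIs. Between them, S100a8 was lower and Hoxa9 higher at the larger share. Against the bin at 5% or less, the median of the Hoxa9 and Meis1 programme was 0.96, 2.20 and 2.64, that of mature neutrophil markers -0.33, -1.24 and -2.72, and that of nuclear complex I -0.52, -1.06 and -1.75. Cytosolic ribosomal proteins levelled off at -0.22, -0.51 and -0.52. Just inside and outside the limit, S100a8 stood at 52605 CPM between 10% and 11% and 80993 CPM between 9% and 10%, and Hoxa9 at 41.2 and 33.9 CPM on 10 and 9 UMIs. The 23 barcodes over 40% held 29360 non-mitochondrial UMIs in all and were not read.

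**Figure D4:**
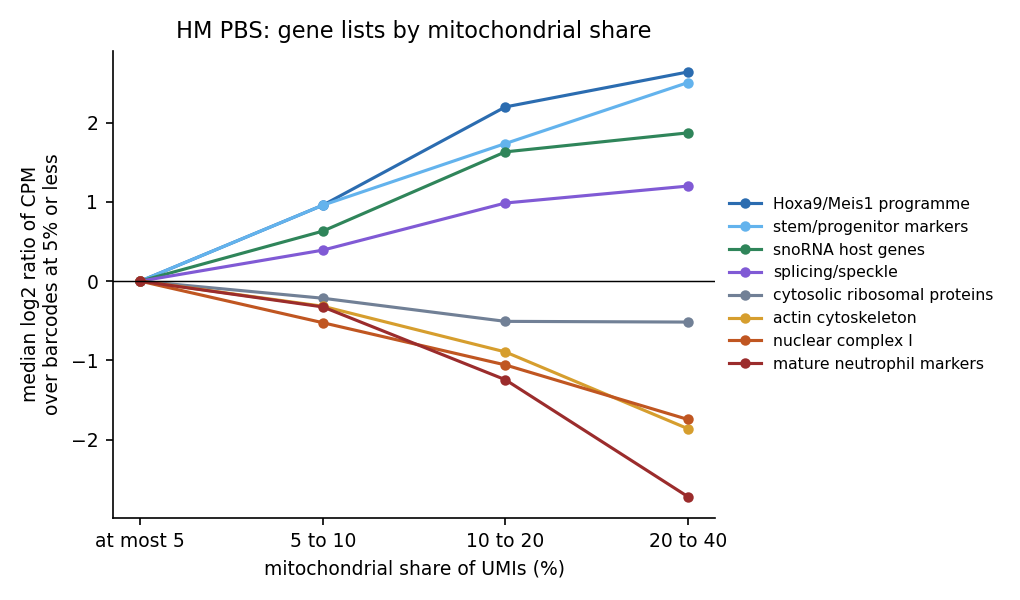
Median log2 ratio of CPM over HM PBS barcodes at 5% mitochondrial share or less (y axis) for 8 gene lists, by mitochondrial share (x axis). The Hoxa9/Meis1 line ends at 2.64 and the mature neutrophil line at -2.72 in the bin of 20% to 40%.

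The same contrast was tested in the 5 other libraries, which the choice of barcodes in HM PBS did not use. UMIs were summed per library and side and fitted with edgeR's quasi-likelihood test, with the library as a block and Benjamini-Hochberg adjusted p-values over 12157 genes. At an adjusted p below 0.05, 1489 genes (12.2%) rose in mitochondria-rich barcodes and 2537 (20.9%) fell. Scaling by library size alone in place of TMM, edgeR's trimmed mean of log ratios, gave 4297 that rose and 1107 that fell, so the higher share of the calls went from 37.0% to 79.5%. The median over all genes went from -0.04 to 0.53, so fitted values are read relative to that median and lie below the CPM ratios. In each library alone, 30.1%, 23.7%, 28.1% and 22.8% of genes at 20 CPM were at least 2-fold higher in MA9 (PBS f/f and Δ/Δ, then Arac+Dox f/f and Δ/Δ) and 33.0% in HM Arac+Dox. The shares at least 2-fold lower were 8.57%, 6.37%, 8.77%, 6.49% and 11.8% in the same order. The 5 libraries differ in oncogene, Shp-1 label and treatment, and the test asks only what they share. Nothing says that they are more than 1 mouse or pool each, and p-values measure the spread between these libraries.

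Genes at least 2-fold apart in HM PBS more often passed the test in their own direction than in the opposite one. Of 2023 genes at least 2-fold higher in HM PBS and tested in the fit, 714 (35.3%) rose and 97 (4.79%) fell, against 15.5% and 31.3% of all 6068 genes compared. Of 787 genes at least 2-fold lower, 508 (64.5%) fell and 5 (0.635%) rose. Read the other way, 714 of the 940 that rose in the fit (76.0%) and 508 of the 1902 that fell (26.7%) were at least 2-fold higher and lower in HM PBS. All 15 of the largest named ratios were higher in 5 of 5 libraries and 11 rose in the fit. On the CPM scale the medians over all genes at 20 CPM or more were also above 0 in these libraries (0.40 to 0.53). The share of all genes higher in 5 of 5 was not counted. Of the 15 smallest, 8 were lower in 5 of 5 and 14 fell.

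Hoxa9 and Meis1, the introduced oncogenes of the HM but not of the MA9 model, had smaller ratios outside HM PBS. This difference was not tested. Hoxa9 had log2 ratios of 0.82, 0.22, 0.64 and 0.73 in the MA9 libraries, in that order, and 2.77 in HM Arac+Dox. Its fitted value of 0.37 (SE 0.25) did not pass, with an adjusted p of 0.281 by edgeR, but passed at 0.95 with library size alone (edgeR adjusted p = 0.00657). Meis1 rose (0.60, SE 0.17, edgeR adjusted p = 0.0117), with 0.09 on 2 mitochondria-rich UMIs in HM Arac+Dox. That call was lost without MA9 f/f PBS (edgeR adjusted p = 0.0897), without MA9 Δ/Δ PBS (0.0556) and at limits of 5% and 20% (0.336 and 0.514). Flt3 rose by 1.07 (SE 0.20, adjusted p = 8.39e-04 by edgeR) and Sox4 by 1.16 (SE 0.24, adjusted p = 0.00183 by edgeR), both with 5 of 5 libraries higher. Flt3 missed the threshold at a limit of 20% (edgeR adjusted p = 0.0832). Over the lists, 5 of 14 tested genes of the Hoxa9 and Meis1 programme rose and 1 fell (median 0.36), and 4 of 13 stem and progenitor markers rose and none fell (median 0.40). Of all genes tested 12.2% rose and 20.9% fell. With library size alone 10 of 14 and 8 of 13 rose, against 35.3% of all genes tested.

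Neutrophil genes differed among the libraries of the fit. S100a8 had log2 ratios of -2.97, -2.71, -1.04, -1.02 and -1.54 over the same 5 libraries and a fitted value of -2.43 (SE 0.27, edgeR adjusted p = 9.83e-06). Ngp had -3.54, -2.41, -1.0, 0.28 and -1.87, so 4 of 5 were lower, and it fell by 2.29 (SE 0.40, edgeR adjusted p = 5.15e-04). DESeq2 called neither, with adjusted p of 0.14 for S100a8 and 0.126 for Ngp. Of the secondary granule markers 9 of 10 fell, and of the mature neutrophil markers 5 of 12 fell, against 20.9% of all genes tested. By DESeq2 5 and 2 of these markers did. The median of the mature list was -0.55 and -0.86 in MA9 f/f and Δ/Δ with PBS and -1.22 in HM Arac+Dox, but 0.57 and 1.05 in MA9 f/f and Δ/Δ with Arac+Dox, where 7 of 12 were higher. The secondary granule median was also above 0 in MA9 Δ/Δ with Arac+Dox (0.35) and below it in the other 4. On the other side, Nrg2 (2.78, 1.65, 2.12, 1.49 and 3.89) rose by 1.76 (SE 0.28, edgeR adjusted p = 2.25e-04), which was lost at a limit of 5% (0.76, edgeR adjusted p = 0.147).

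Most respiratory chain, ribosomal and actin genes fell in the fit, where 12.2% of all genes tested rose and 20.9% fell. Of nuclear complex I genes 33 of 36 fell, of complexes II to V 40 of 40, of mitochondrial ribosomal proteins 46 of 52 and of cytosolic ribosomal proteins 79 of 81. Ost4 had ratios of -1.73, -1.42, -1.62, -1.98 and -1.81 and fell by 2.30 (SE 0.16, edgeR adjusted p = 5.14e-07). Cox6c had -1.31, -0.73, -0.63, -0.88 and -1.59 and fell by 1.61 (SE 0.17, edgeR adjusted p = 6.96e-06). Of actin genes 22 of 24 fell. With library size alone the counts that fell were 23 and 32 for the respiratory lists, 32 and 64 for the ribosomal lists and 17 for actin, in the same order. Of 16 heat shock genes 2 rose and 8 fell (median -0.58), and 3 and 1 did with library size alone. Hsp90aa1 had a fitted value of -0.61 (SE 0.13, edgeR adjusted p = 0.00229), but -0.024 with library size alone (edgeR adjusted p = 0.909). Of 22 splicing and speckle genes 8 rose and 5 fell, and 17 and 1 did with library size alone. The libraries of the fit too had deeper kept than mitochondria-rich barcodes. Their medians were 6505.5 to 9736.5 against 1380.5 to 2264 non-mitochondrial UMIs, and the part of depth in the fit was not tested.

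Among genes abundant in HM PBS, the largest rises in the fit were those of Ccnb1ip1, a ubiquitin ligase (2.60), Marcks, a membrane-bound substrate of protein kinase C (2.48), Lars2, the mitochondrial leucyl-tRNA synthetase (1.97), Errfi1, an inhibitor of the EGF receptor (1.86), and Nrg2. The largest falls were those of Orm1, an acute phase glycoprotein (-4.00), Cstdc4 (-2.86), Dynlt1f, a dynein light chain (-2.71), Stfa1 (-2.67) and Cstdc5 (-2.56). Marcks went the other way in HM PBS, with 28.7 CPM in mitochondria-rich and 93.5 CPM in kept barcodes (log2 ratio -1.70). Its call was lost at a limit of 20% (edgeR adjusted p = 0.227) and with HM PBS in the fit (0.137). Lars2 stood at 2674 and 573 CPM there (2.22) and Orm1 at 23.7 and 70.3 CPM (-1.57). Malat1 rose by 1.33 (SE 0.13, edgeR adjusted p = 3.25e-06), with ratios of 1.66 to 2.07 in 5 of 5 libraries. Ptpn6 fell by 0.97 (SE 0.19, edgeR adjusted p = 0.00102), with 5 of 5 libraries lower, and missed the threshold with library size alone (-0.39, edgeR adjusted p = 0.093) and at a limit of 5% (0.232). Pfkp did not pass (0.19, SE 0.19, edgeR adjusted p = 0.466), but did with library size alone (0.77, edgeR adjusted p = 0.0043).

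**Figure D5:**
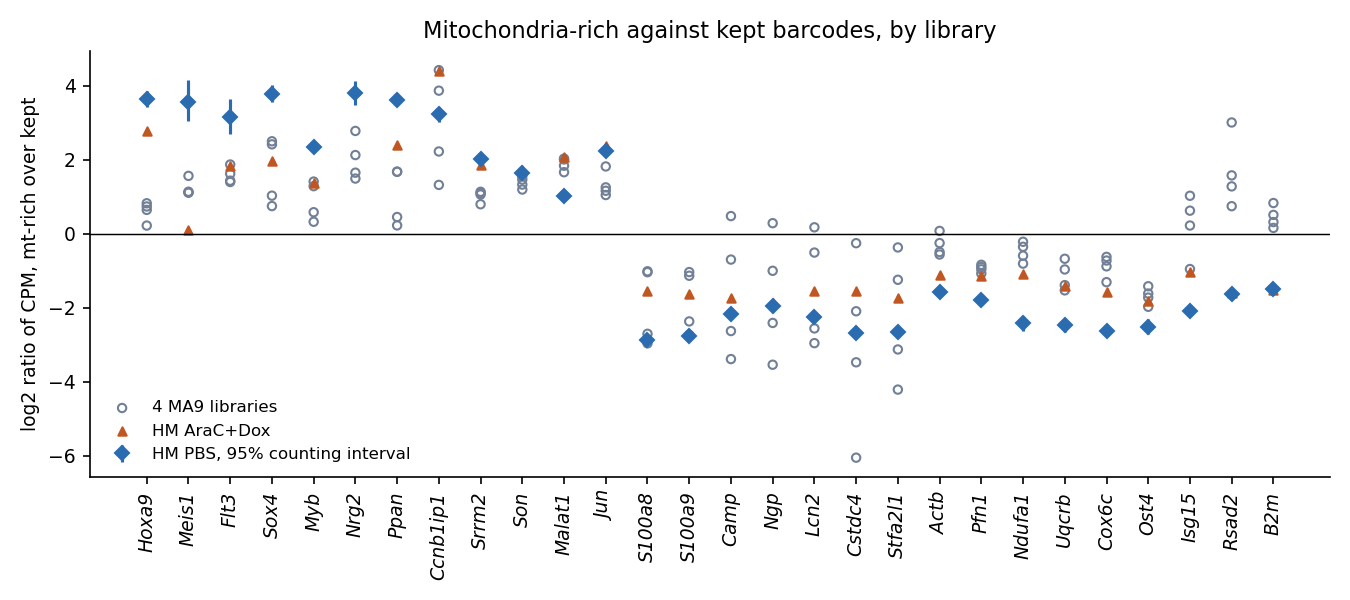
Log2 ratio of CPM, mitochondria-rich over kept barcodes (y axis), for 28 genes (x axis) in HM PBS (diamonds, with the exact 95% interval for counting error), in HM AraC+Dox (triangles) and in the 4 MA9 libraries (circles). In HM PBS, Nrg2, Sox4, Hoxa9, Ppan and Meis1 lie highest of these genes. Rsad2 and B2m lie below 0 in both HM and above 0 in all 4 MA9 libraries.

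Some lists had CPM ratios of opposite sign in the 2 leukaemias. The sign depends on the scale. Medians over all genes at 20 CPM or more were 0.43 in HM PBS and 0.40 to 0.53 in the other libraries. The lowest MA9 ratio of B2m, 0.15, lies below those medians. Interferon response genes had medians of -1.18 in HM PBS and -0.91 in HM Arac+Dox, and of 0.66 to 1.28 over the 4 MA9 libraries. Rsad2, an antiviral enzyme induced by interferon, had -1.64 and -1.59 in HM and 0.74 to 3.01 in MA9, where its mitochondria-rich sums held at most 9 UMIs. B2m, the light chain of MHC class I, stood at 459 and 1296 CPM in HM PBS (-1.50), with -1.51 in HM Arac+Dox and 0.15 to 0.83 in MA9. The macrophage markers had a median of -0.78 in HM PBS, -0.16 in HM Arac+Dox and 2.97 to 6.14 in MA9, and 9 of 10 rose in the fit (median 3.31). These medians rest on different members, 3 measured in HM PBS and 5 in HM Arac+Dox against 9 or 10 in MA9. Stroma markers, of which 6 of 7 tested rose in the fit, did not reach 5 CPM in HM PBS. The difference between the leukaemias was not tested, and barcode length and the number of features (32285 and 31053) separate HM from MA9 libraries in the same way, so these cannot be told apart.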

How the data were processed

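Raw UMI counts per gene and barcode were deposited by the authors for 6 droplet libraries of mouse marrow, with no normalisation. Per the submitters' processing notes, Cell Ranger 3.0.2 and mm10 were used. HM file headers name no software, and HM barcodes have 17 bases against 16 in MA9. Members and gene lists were chosen with earlier results of these data known.

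Barcodes were split at 10% mitochondrial UMIs with at least 500 genes. Doublets were not called. UMIs of non-mitochondrial genes were summed per side and scaled to CPM. Ratios carry 95% Clopper-Pearson intervals, taken given the total of both sides, and a count of 0 was set to 3. These intervals and bounds cover counting error only. HM PBS is 1 library holding 29347365 UMIs, so no test was made in it. Genes at 20 CPM or more were compared at 2-fold, and list members at 5 CPM or more at a log2 ratio of 0.32. For marker shares each barcode was thinned to 500 UMIs, and none was too shallow.

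The other 5 libraries were fitted in edgeR 4.0.16 (R 4.3.3; TMM, filterByExpr, quasi-likelihood test, library as a block, since both sums of a library come from the same marrow). DESeq2 1.42.0 was an alternative. The fit was tested on simulated data. Lengths and coding sequences came from GENCODE vM21 (GRCm38).

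Named were the 15 largest and 15 smallest HM PBS ratios at 50 CPM or more with an interval excluding 0 (154 mitochondrial, ribosomal, haemoglobin, immunoglobulin, receptor, sex-linked and code-named genes left out of naming), up to 4 members per list, Ptpn6, Pfkp and the 13 mitochondrial genes. From the fit, the 5 largest changes each way were named among genes at 50 CPM or more in HM PBS. Alternatives were other limits, gene minimums, CPM minimums, scalings and depth ranges, and leaving out each library. The range of 2000 to 4000 UMIs was chosen after seeing the data.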

Additional observations from a re-analysis of the deposited data

Results flagged for a closer look

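Each result here had both HM libraries on one side and all 4 MA9 libraries on the other, by the sign of the log2 ratio of CPM. That sign depends on the scale. Medians over all genes at 20 CPM or more were 0.43 in HM PBS and 0.40 to 0.53 in the other libraries. The lowest MA9 values of Lcp1, B2m, Fas, monocyte markers and endoplasmic reticulum genes lie below those medians. MHC class I presentation genes had 0.40 in MA9 f/f with Arac+Dox and 0.42 in MA9 f/f with PBS. These lie below the medians of the same libraries, 0.46 and 0.53. The list of Shp-1, its receptors and Pfkp had 0.52 in MA9 f/f with PBS, also below the 0.53 there. The difference between the leukaemias was not tested in any of them.

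Among genes, Suclg2 had 1.98 in HM PBS and 0.55 in HM Arac+Dox, against -0.75 to -0.22 in MA9. Lcp1, an actin-bundling protein of leukocytes, had -1.45 and -0.91 against 0.16 to 0.48. B2m had -1.50 and -1.51 against 0.15 to 0.83, and Rsad2 had -1.64 and -1.59 against 0.74 to 3.01. Fas had -1.66 and -1.16 against 0.22 to 1.66. Wfdc17, a secreted protein of myeloid cells, had -2.04 and -0.98 against 0.61 to 1.38.

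Among list medians, monocyte markers had -0.49 in HM PBS and -0.51 in HM Arac+Dox, against 0.17 to 0.74 in MA9. Macrophage markers had -0.78 and -0.16 against 2.97 to 6.14, over 3 and 5 measured members in HM and 9 or 10 in MA9. Genes of endoplasmic reticulum chaperones and translocation had -0.38 and -0.52 against 0.15 to 0.75. Interferon response genes had -1.18 and -0.91 against 0.66 to 1.28, MHC class I presentation genes -0.43 and -0.04 against 0.40 to 0.89, and lysosome genes -0.45 and -0.27 against 0.92 to 1.31. The list of Shp-1, its receptors and Pfkp had -0.74 and -0.34 against 0.47 to 0.85. Monocyte, endoplasmic reticulum and lysosome medians in HM PBS also changed sign in at least 1 of the matched depth ranges.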

How the results depend on the processing

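In HM PBS, of 90 genes described 86 kept their direction under all 10 alternatives, and of 31 list medians 16 did. The genes, Ptpn6 and Pfkp aside, were chosen by the size of their ratios in this same library. The counts of 2-fold higher and lower genes, 2051 and 798, became 1043 and 1772 under median-of-ratios scaling. The higher count was 3377 at a CPM minimum of 5 and 1019 at 50. Below, genes are counted as turned where the reported ratio was at least 2-fold, and list medians where it passed a log2 of 0.32. Under this scaling those were the medians of the tricarboxylic acid cycle (-0.13) and of cell death effectors (-0.27).

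At 1000 to 2000 non-mitochondrial UMIs the values that turned were Malat1 (-0.24), Elane (2.89), Saa3 (1.15), primary granule markers (2.24), monocytes (0.80), complexes II to V (0.11), mitochondrial ribosomal proteins (1.02), mitochondrial import (1.55), nuclear-retained RNAs (-0.34), endoplasmic reticulum genes (0.69), haemoglobins (2.39), lysosome (0.14) and cytosolic ribosomal proteins (0.74). At 2000 to 4000 they were Elane (1.38), Saa3 (0.40), primary granule markers (1.44), monocytes (0.79), mitochondrial ribosomal proteins (1.10), import (1.26), endoplasmic reticulum genes (0.87) and cytosolic ribosomal proteins (0.78). With each barcode weighted equally they were Elane (0.42), primary granule markers (0.78), monocytes (0.41), mitochondrial ribosomal proteins (0.43), import (0.74), endoplasmic reticulum genes (0.43), lysosome (0.042) and cytosolic ribosomal proteins (0.16). Without the deepest 5% of barcodes they were primary granule markers (0.37), mitochondrial ribosomal proteins (0.19), import (0.39) and endoplasmic reticulum genes (0.073). The cause was not tested.

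In the 5 other libraries, 1489 genes rose and 2537 fell. Without the replicate block that pairs the sums of a library, 742 rose and 1650 fell, and 44 of the 70 calls on described genes were lost. With library size alone 4297 rose and 1107 fell, and a limit of 20% gave 895 that rose. DESeq2, over 16069 genes, gave 2456 that rose and 1872 that fell (56.7% of the calls higher), and on the same 12157 genes 1933 and 1872. Leaving out each library in turn gave 1003 to 1762 that rose and 2173 to 2818 that fell. The small mitochondria-rich sums of MA9 libraries, 94 to 406 barcodes, limit the precision there.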
